A study of Mus musculus with 36 samples.

Results

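The Kruppel-like factors (KLFs) examined here are 10 genes, Klf2, Klf3, Klf4, Klf6, Klf9, Klf10, Klf11, Klf12, Klf13 and Klf15. They were chosen as the genes whose symbol in the array annotation is one of these names, and they are covered by 19 of 56605 non-control probes and are 10 of 37325 genes on the array. The names were listed with earlier results of these data known. RNA was measured in the livers of 36 male C57Bl/6J mice, 1 single-colour Agilent array per mouse, in 6 groups of 6. CTRL denotes control mice, and AAKO denotes mice that lack adipose triglyceride lipase (ATGL), the enzyme that begins the breakdown of stored triglyceride, in white adipose tissue. The promoter or Cre line behind the deletion, the construct carried by the controls and the age of the mice are not given in the sources used here, and a liver array does not check a deletion made in fat. Mice of each genotype were fed freely, fasted for 24 h, or fed and given the beta 3 adrenergic receptor agonist CL316243, which drives fat breakdown in adipocytes, by gavage at 3 mg/kg in carboxymethyl cellulose at Zeitgeber time 10. The livers were taken at Zeitgeber time 16, after lights off. Per the labels, experiment 2 supplied the fed mice and experiment 1 all the others, so a response relative to fed mice and a difference between experiments cannot be told apart. Genotype comparisons within a condition lie within 1 experiment. A gavage is described for the CL316243 groups only, so an effect of gavage or vehicle cannot be told apart from that of the drug.

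KLFs are transcription factors with a conserved zinc-finger domain at the carboxyl end that binds GC-rich and CACCC-box DNA, and they differ in the regions that recruit cofactors. KLF2, KLF4 and KLF6 belong to a subgroup that mostly activates transcription through histone acetyltransferases, KLF3 and KLF12 recruit the corepressor CtBP, and KLF9, KLF10, KLF11 and KLF13 recruit the Sin3 and histone deacetylase complex. KLF15 lies outside these subgroups and is known in liver for its part in amino acid catabolism and gluconeogenesis. Several members, Klf9 and Klf15 among them, are known targets of the glucocorticoid receptor, and Klf9 and Klf10 are known as outputs of the circadian clock.

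Klf3 had 3 probes that did not move together, and their positions and their opening 30 of 60 bases are shown because the reading of Klf3 turns on them. The probe chosen to represent Klf3, the brightest on average, lies at chr5:65221309-65221368 of mm9. A second probe lies further along the plus strand, at chr5:65223991-65224050. The third spans 581 bases of the genome, chr5:65213568-65214148, and so is aligned across a gap. All are on the strand of the gene and in lower case.
Klf3 representing probe: cattgtcgatcatgaagccttgagagtaag
Klf3 downstream probe: gtttctaccctgtagtccaatgggaattca
Klf3 gapped probe: gatggacaattcaaacagcggcatgccagt

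The 250 bases upstream of the annotated start were available from RefSeq on GRCm38.p6 for 9 of the 10 genes. The sequences for Klf15, Klf4 and Klf9, which were higher in fasted AAKO than in fasted CTRL livers, and for Klf12, which was lower, are printed 5′ to 3′ on the strand of the gene. Capitals mark CACGTG, the core of the E-box bound by clock and other helix-loop-helix factors, which is its own reverse complement. The windows are chr6:90462326-90462575 on the plus strand for Klf15, chr4:55532476-55532725 on the minus strand for Klf4, chr19:23140976-23141225 on the plus strand for Klf9 and chr14:100149797-100150046 on the minus strand for Klf12.
Klf15: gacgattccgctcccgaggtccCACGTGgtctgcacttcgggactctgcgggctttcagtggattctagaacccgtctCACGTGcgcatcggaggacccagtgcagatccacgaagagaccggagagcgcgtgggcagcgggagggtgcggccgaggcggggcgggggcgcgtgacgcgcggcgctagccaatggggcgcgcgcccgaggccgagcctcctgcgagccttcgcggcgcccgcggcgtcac
Klf4: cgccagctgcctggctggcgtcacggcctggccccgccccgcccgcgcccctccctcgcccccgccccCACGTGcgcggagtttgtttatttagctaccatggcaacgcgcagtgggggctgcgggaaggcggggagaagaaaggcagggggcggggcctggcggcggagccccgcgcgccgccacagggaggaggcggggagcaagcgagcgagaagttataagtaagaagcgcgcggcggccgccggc
Klf9: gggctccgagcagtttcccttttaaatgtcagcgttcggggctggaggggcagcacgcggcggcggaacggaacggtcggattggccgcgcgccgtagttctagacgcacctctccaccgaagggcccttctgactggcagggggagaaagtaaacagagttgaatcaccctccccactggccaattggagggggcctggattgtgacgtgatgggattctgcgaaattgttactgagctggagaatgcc
Klf12: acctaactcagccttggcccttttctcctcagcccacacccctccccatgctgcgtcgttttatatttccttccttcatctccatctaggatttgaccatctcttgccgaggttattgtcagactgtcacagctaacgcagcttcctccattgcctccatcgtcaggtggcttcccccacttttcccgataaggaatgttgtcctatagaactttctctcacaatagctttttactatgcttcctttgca

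CACGTG was present in 4 of the 9 KLF windows, those of Klf4, Klf6, Klf11 and Klf15, and in 6.05% of 27025 windows of the same length. Klf15 held 2 copies and the other 3 genes 1 each. GGGCGG or its reverse complement, a GC box of the kind that KLF and SP proteins bind, was in 7 of the 9 windows and in 32.9% of all. CACCC or its reverse complement was in 6 of 9 and in 51.3% of all, and TGACG or its reverse complement, the core of a cyclic AMP response element, in 6 of 9 and in 17.9% of all. The KLF windows were 48% to 78.4% G and C, and the part of base composition in these shares was not tested. A match is a description of the letters and not a binding site.

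Levels below are log2 signals from which the log2 of the same array's 75th percentile was subtracted, so a step of 1 is a doubling, and they are compared between groups for 1 probe and never between probes. Differences are log2 fold changes ± SE from a linear model (limma) over all arrays with the wash batch as a term. A gene is said to rise, fall or pass where its Benjamini-Hochberg adjusted p over all 24251 tested genes was under 0.05. Replicates are separate mice. All 10 KLF genes passed the filter for low signal, and the representing probe of each was well above background on 36 of 36 arrays. Between 33128 and 37200 probes were well above background on an array, and no spot was saturated. The hepatocyte markers Alb, Apoa1, Ttr, Fabp1, Cps1 and Hnf4a were well above background on all 36 arrays. A lower level in bulk liver can come from fewer cells of a type or from less RNA per cell, and these cannot be told apart. The fasted CTRL mouse with replicate number 2 stood apart from its group on the first principal component, at 81.3. The others of its group lay between 16.8 and 29.0, and the group mean with it was 34.0. It lay toward the fasted AAKO mice. The difference between fasted genotypes is given with and without it for each KLF gene.

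In fed mice none of the 10 KLF genes passed between genotypes. The differences ran from -0.65 ± 0.33 for Klf10 to 0.38 ± 0.20 for Klf12, limma called 0 of 10, and 0 of 10 had an unadjusted p under 0.05. Over all genes 0.0783% passed in this comparison. In fasted mice 8 of the 10 genes differed between genotypes, where 49.3% of all tested genes did. Klf2, Klf4, Klf6, Klf9, Klf10, Klf13 and Klf15 were higher in AAKO and Klf12 was lower. Thus 7 of 10 were higher against 21.3% of all genes and 1 of 10 lower against 28%. The 10 genes were chosen with earlier results of these data known. Their shares here and below therefore describe these genes and do not test the family. The median over the KLF genes was 1.16 and over all genes -0.04. In 4 of the 10 genes no fasted AAKO mouse overlapped a fasted CTRL mouse, where 21.3% of all genes showed such a gap. None of the 8 calls was lost in the 12 fits that each left out 1 fasted array.

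**Figure D1:**
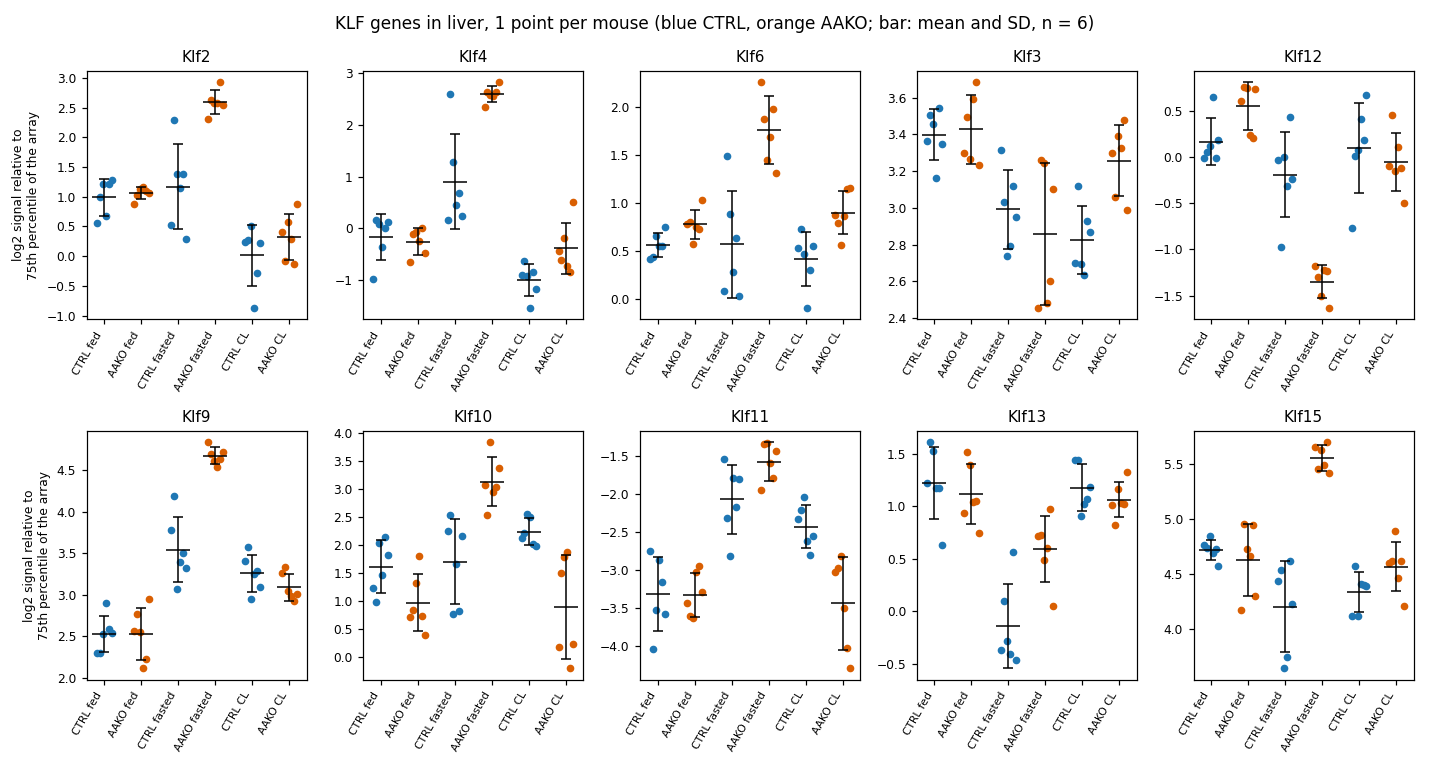
Each panel plots 1 KLF gene, with the group on the x axis and the level (scaled log2 signal) on the y axis; each point is 1 mouse, and the bars are the mean and SD of 6 mice. The fasted AAKO mice form the highest group for 7 genes and the lowest for Klf12, and for Klf15 they lie between 5.42 and 5.70 where no other mouse exceeds 4.96.

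Klf2, Klf4 and Klf6, of the activating subgroup, all rose in fasted AAKO relative to fasted CTRL livers. Klf2, a factor of endothelial and T cell quiescence induced by blood flow, had a lowest, median and highest level of 0.29, 1.26 and 2.29 in fasted CTRL mice. In fasted AAKO mice these were 2.32, 2.58 and 2.93. No mouse of one group reached the other, although the gap was narrow and the highest control was the mouse that stood apart. The difference was 1.43 ± 0.23 (2.69-fold, limma adjusted p = 6.12e-06), with 1.56 in wash batch 1 and 1.29 in wash batch 2, and 1.64 without that control mouse.

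Klf4, which acts in endothelium, monocytes and epithelial barriers, showed the widest spread among fasted controls. Its levels were 0.16, 0.57 and 2.59 (lowest, median, highest) in fasted CTRL mice and 2.34, 2.61 and 2.83 in fasted AAKO mice. A single control mouse, the one that stood apart, lay within the AAKO range, and the next highest control was at 1.29. Klf4 differed by 1.70 ± 0.28 (3.24-fold, limma adjusted p = 7.26e-06), by 1.95 in wash batch 1 and 1.45 in wash batch 2, and by 2.06 without that mouse.

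Klf6, a widely expressed factor that responds early to injury, ranged from 0.03 through a median of 0.45 to 1.48 in fasted CTRL mice. In fasted AAKO mice it ranged from 1.31 through 1.77 to 2.26, so only the control at 1.48 reached the AAKO range. The difference was 1.19 ± 0.18 (2.29-fold, limma adjusted p = 1.41e-06), with 1.03 and 1.36 in wash batches 1 and 2, and 1.37 without that control.

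Klf2 and Klf4 are abundant in endothelium, and Klf4 also in myeloid cells, so markers of those cells are set beside them. The mean level of 6 liver endothelial markers was 1.18 ± 0.36 (SD, n = 6), between 0.65 and 1.70, in fasted CTRL and 1.73 ± 0.13, between 1.60 and 1.93, in fasted AAKO livers. Of these 6 markers 3 rose and 0 fell, with a median difference of 0.30. The mean over 5 neutrophil markers was 0.50 ± 1.71 (SD, n = 6), between -1.25 and 3.37, in fasted CTRL and 2.65 ± 0.74, between 1.44 and 3.71, in fasted AAKO livers, and 4 of 5 rose, with a median of 3.38. Among the 6 Kupffer cell markers 0 rose and 0 fell in limma, with a median of 0.14. The 6 hepatocyte markers named above moved as well, 2 up and 4 down, with a median of -0.27. The part of these cells in the KLF differences was not tested.

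Klf12, which encodes a repressor first described as acting on the AP-2 alpha gene, moved the other way. Its levels were -0.97, -0.14 and 0.43 (lowest, median, highest) in fasted CTRL mice and -1.63, -1.27 and -1.18 in fasted AAKO mice, with no overlap. The lowest control was again the mouse that stood apart. Klf12 was lower by a log2 difference of -1.16 ± 0.20 (2.23-fold, limma adjusted p = 1.08e-05). Within wash batch 1 the value was -1.54 and within wash batch 2 it was -0.77, where it did not pass (adjusted p = 0.0562). Without that control mouse it was -1.31. The 4 Klf12 probes gave -1.16, -1.04, -0.96 and -0.82, and all of them passed.

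Klf3, the other CtBP-binding member, did not pass on its representing probe. That probe read 2.74, 2.99 and 3.32 (lowest, median, highest) in fasted CTRL mice and 2.46, 2.85 and 3.26 in fasted AAKO mice. The ranges overlap, but 3 of the 6 AAKO mice, all of wash batch 2, lay below every control. Its difference was -0.13 ± 0.13 (limma adjusted p = 0.414), with 0.27 in wash batch 1 and -0.53 in wash batch 2, opposite directions, and -0.11 without the control mouse that stood apart. The downstream probe fell by 0.46 ± 0.13 on the log2 scale and passed (limma adjusted p = 0.00362, over all probes).

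The gapped Klf3 probe printed above rose instead. It read 1.00, 1.47 and 2.21 (lowest, median, highest) in fasted CTRL mice and 2.78, 3.11 and 3.72 in fasted AAKO mice, so the groups lay apart. Its difference was 1.66 ± 0.16, and relative to fed mice of the same genotype it was 2.31 ± 0.16 higher in fasted AAKO and 0.73 ± 0.16 higher in fasted CTRL mice. The representing probe was lower in the same comparisons, by -0.57 ± 0.13 in AAKO and -0.41 ± 0.13 in CTRL mice. These probes therefore do not report 1 common Klf3 level, and which transcripts each detects was not tested.

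**Figure D2:**
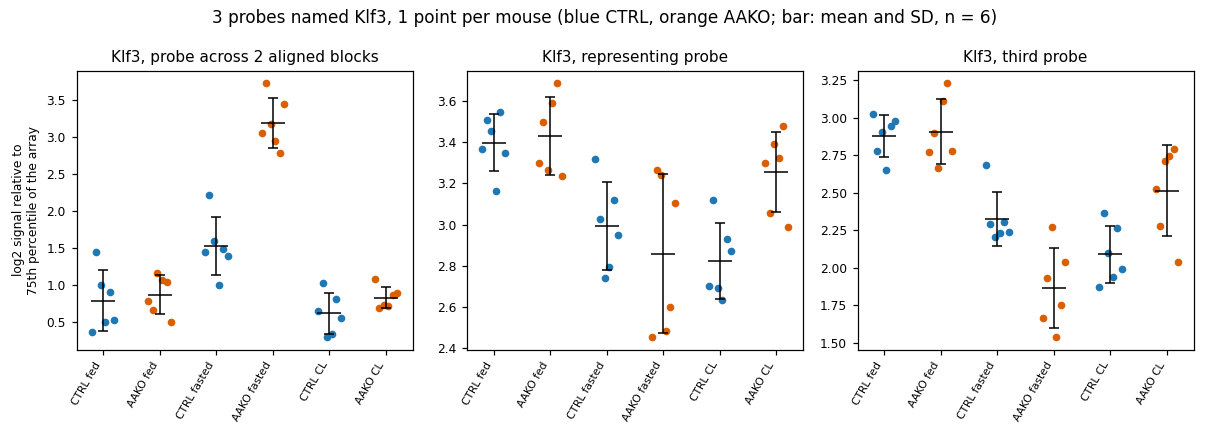
Each panel plots 1 of the 3 Klf3 probes, with the group on the x axis and the level (scaled log2 signal) on the y axis; points are mice, and bars are the mean and SD of 6 mice. The gapped probe, at the left, is highest in fasted AAKO mice at a mean of 3.18, while the downstream probe, at the right, is lowest there at 1.87.

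Of the Sin3-binding members, Klf9, Klf10 and Klf13 rose in fasted AAKO relative to fasted CTRL livers and Klf11 did not pass. Klf9, a factor induced by glucocorticoid and thyroid hormone, read 3.07, 3.45 and 4.19 (lowest, median, highest) in fasted CTRL mice and 4.54, 4.66 and 4.84 in fasted AAKO mice. No mice overlapped, and the AAKO mice spanned a narrow band. The difference was 1.13 ± 0.14 (2.19-fold, limma adjusted p = 1.01e-07), with 1.38 and 0.88 in wash batches 1 and 2, and the other Klf9 probe gave 1.03. Without the control mouse that stood apart it was 1.26.

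Klf10, named for its early induction by TGF-beta and also an output of the liver clock, read 0.77, 1.91 and 2.54 in fasted CTRL mice and 2.53, 3.04 and 3.83 in fasted AAKO mice (lowest, median, highest). The ranges touched only at the highest control and the lowest AAKO mouse. The difference was 1.43 ± 0.33 (2.69-fold, limma adjusted p = 0.000536), 1.99 in wash batch 1 and 0.87 in wash batch 2, both of which passed, and 1.58 without the control mouse that stood apart. Its other probe was well above background on 8 of 36 arrays and was not tested.

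Klf13, a factor known from T cell cytokine genes, read -0.46, -0.33 and 0.57 in fasted CTRL mice and 0.05, 0.66 and 0.97 in fasted AAKO mice (lowest, median, highest). The difference was 0.74 ± 0.17 (1.67-fold, limma adjusted p = 0.000585), and its other probes gave 1.17 and 0.94. It was 0.99 in wash batch 2 and 0.48 in wash batch 1, where it did not pass (adjusted p = 0.140), and 0.79 without the control mouse that stood apart. The probe at 0.94 maps to the strand opposite to the others on the genome.

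Klf11, a relative of Klf10 that takes part in insulin and lipid gene control, read -2.81, -1.98 and -1.55 in fasted CTRL mice and -1.95, -1.52 and -1.33 in fasted AAKO mice (lowest, median, highest). These ranges overlap, and the difference of 0.50 ± 0.23 did not pass (limma adjusted p = 0.0793), nor did the 0.44 found without that control mouse.

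Klf15 had the smallest adjusted p of the 10 genes in this comparison. It read 3.64, 4.33 and 4.62 (lowest, median, highest) in fasted CTRL mice and 5.42, 5.56 and 5.70 in fasted AAKO mice. The groups were separated by a clear gap. The difference was 1.36 ± 0.15 (2.57-fold, limma adjusted p = 3.73e-09), with 1.35 in wash batch 1 and 1.38 in wash batch 2, and 1.44 without the control mouse that stood apart.

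**Figure D3:**
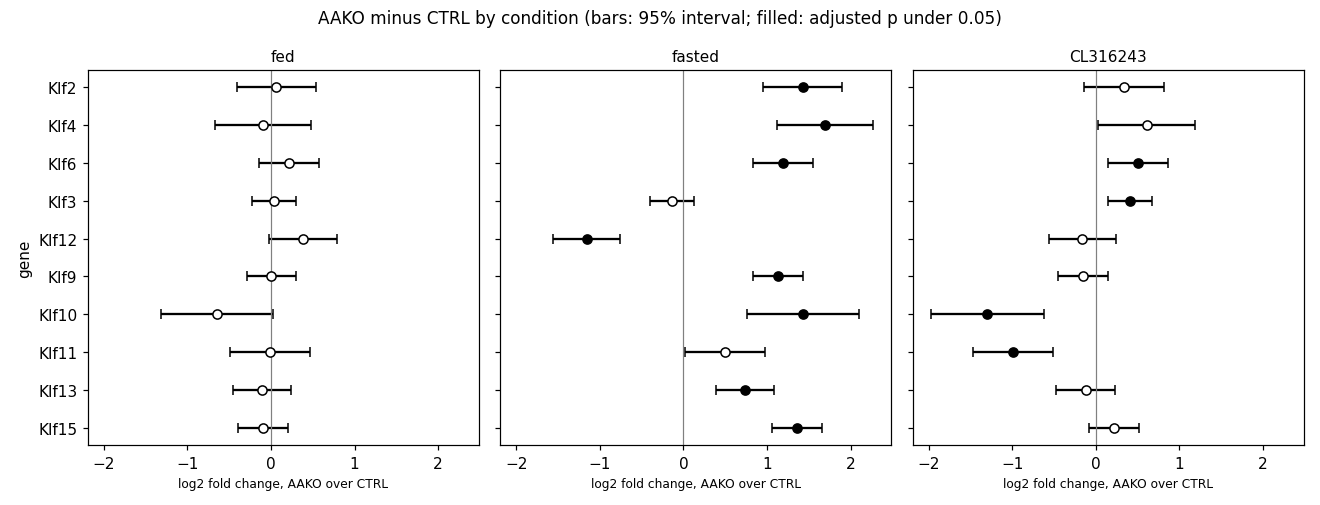
The x axis is the log2 fold change of AAKO over CTRL in fed, fasted and CL316243-treated mice, and each row on the y axis is 1 KLF gene; points are limma estimates, bars are 95% intervals, and filled points have an adjusted p under 0.05. No point is filled in fed mice, 8 are in fasted mice and 4 are after CL316243, where Klf10 and Klf11 lie below 0.

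After CL316243, 4 of the 10 KLF genes differed between genotypes, where 24.7% of all genes did. Klf10 and Klf11 were lower in AAKO and Klf3 and Klf6 higher, and the median over the KLF genes was 0.05 against 0.03 over all genes. Klf10 read 1.99, 2.17 and 2.55 (lowest, median, highest) in CTRL and -0.20, 0.86 and 1.88 in AAKO mice, with no overlap. It was lower by a log2 difference of -1.30 ± 0.33 (2.46-fold, limma adjusted p = 0.00384). The 6 AAKO values split, with 3 between -0.20 and 0.23 and 3 between 1.49 and 1.88. All 3 low arrays were among the 4 of wash batch 1, and the difference was -1.82 in that batch and -0.40 in wash batch 2, where it did not pass (adjusted p = 0.438).

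Klf11 read -2.80, -2.44 and -2.04 in CTRL and -4.29, -3.26 and -2.81 in AAKO mice given CL316243 (lowest, median, highest). The groups met without overlapping. The difference was -0.99 ± 0.24 (1.99-fold, limma adjusted p = 0.00205), -1.03 and -0.85 in wash batches 1 and 2, of which neither passed alone. It shrank to -0.42 with normexp background correction and still passed. All 6 Klf11 differences that passed shrank by over 1.5 times under that correction and still passed.

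Klf3 on its representing probe was 0.41 ± 0.13 higher in AAKO after CL316243 (limma adjusted p = 0.0182), and the downstream probe gave 0.42, while the gapped probe gave 0.17 and did not pass. The Klf3 call was lost without the CTRL mouse of replicate number 4, at 0.36, with slide as a fixed factor, at 0.34, and within wash batch 1, at 0.31 against 0.60 in wash batch 2. Klf6 was 0.50 ± 0.18 higher (limma adjusted p = 0.0367), a call that was lost when any of 6 arrays was left out (CTRL replicates 3, 4 and 5, AAKO replicates 1, 5 and 6), at 0.41 to 0.50, with the authors' deposited log2 values, at 0.44, and with no filter on dim probes, at 0.50 (adjusted p = 0.0593). It was 0.68 in wash batch 1 and 0.20 in wash batch 2, where it did not pass (adjusted p = 0.770). Klf4 gave 0.61 ± 0.28 and did not pass (limma adjusted p = 0.118).

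The change of genotype difference between conditions was tested directly. Between fed and fasted mice it passed for 8 of 10 KLF genes, where 33.9% of all genes passed. The change was upward in AAKO for 7 genes, against 14.5% of all, and downward for 1, against 19.4%. A difference between experiments that both genotypes share cancels in this test. The values were 2.08 ± 0.47 for Klf10, 1.79 ± 0.40 for Klf4, 1.46 ± 0.21 for Klf15 and 1.36 ± 0.33 for Klf2. They were 1.13 ± 0.20 for Klf9, 0.98 ± 0.25 for Klf6, 0.84 ± 0.24 for Klf13 and -1.54 ± 0.28 for Klf12. All 8 kept their direction within each wash batch, where 6 passed in wash batch 1 and 3 in wash batch 2. Klf11 at 0.50 ± 0.33 and Klf3 at -0.17 ± 0.18 did not pass, although the gapped Klf3 probe gave 1.58 ± 0.23. The downstream Klf3 probe moved the other way. Its means were 2.88 and 2.91 in fed CTRL and AAKO mice, and 2.33 and 1.87 in fasted CTRL and AAKO mice.

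Between fed and CL316243 mice the genotype difference changed for 0 of 10 KLF genes in limma, where 10.9% of all genes passed, and 2 of 10 had an unadjusted p under 0.05. Klf11 came nearest, at -0.98 ± 0.33 (adjusted p = 0.0525). Between CL316243 and fasted mice, which share an experiment, all 10 genes passed, where 32.3% of all genes did. The change was upward for 8, against 12.7% of all, and downward for 2, against 19.6%. Klf10 had the largest value, 2.73 ± 0.47 (limma adjusted p = 3.47e-05), being lower in AAKO after CL316243 and higher after the fast. Klf4 at 1.09 ± 0.40 and Klf6 at 0.69 ± 0.25 each lost the call in 9 of 24 fits that left out 1 array of these groups. The values were then 0.94 to 1.05 for Klf4, without fasted CTRL replicates 1, 4, 5 and 6, fasted AAKO replicate 6, CL316243 CTRL replicate 2 or CL316243 AAKO replicates 2, 4 and 5. For Klf6 they were 0.57 to 0.66, without fasted CTRL replicates 1, 4 and 6, fasted AAKO replicates 1, 2 and 5, CL316243 CTRL replicate 2 or CL316243 AAKO replicates 3 and 4. Both also lost it with no filter on dim probes, in a fit of the compared groups alone and with slide as a fixed factor, where the lowest values were 0.92 for Klf4 and 0.55 for Klf6, and neither passed within a single wash batch. Klf4 was 1.29 in wash batch 1 and 0.91 in wash batch 2, and Klf6 was 0.35 and 1.16. Within wash batches 1 and 2, 5 and 3 genes passed.

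Klf3, 1 of the 2 genes counted as downward, was so counted on its representing probe, at -0.54 ± 0.18. That value was -1.14 in wash batch 2 and -0.04 in wash batch 1, where it did not pass (adjusted p = 0.917), and the call was lost without the fasted CTRL mouse of replicate number 1, at -0.46. The downstream Klf3 probe gave -0.88 ± 0.18, while the gapped probe passed upward, at 1.49 ± 0.23 (limma adjusted p = 7.38e-06, over all probes).

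Set against fed mice of the same genotype, fasted mice differed in 6 of 10 KLF genes in CTRL livers, where 43.3% of all genes passed. In AAKO livers 10 of 10 differed, where 63.5% of all genes passed. The fed mice came from another experiment, so an effect of fasting cannot be told apart from it here. In CTRL livers Klf11, Klf4 and Klf9 were higher, by 1.24 ± 0.23, 1.06 ± 0.28 and 1.02 ± 0.14. Klf4 gave 0.71 without the fasted mouse that stood apart, still past the test. Klf13, Klf15 and Klf3 on its representing probe were lower, by -1.37 ± 0.17, -0.52 ± 0.15 and -0.41 ± 0.13, while the gapped Klf3 probe was higher. With quantile normalization Klf3 was at -0.31 and did not pass, and in a fit of the compared groups alone Klf4 kept its value and did not pass (adjusted p = 0.0528). Klf2 at 0.18, Klf10 at 0.08, Klf6 at 0.01 and Klf12 at -0.36 did not pass.

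In AAKO livers Klf4 was higher by 2.86 ± 0.28 (7.24-fold), Klf10 by 2.16 ± 0.33, Klf9 by 2.14 ± 0.14, Klf11 by 1.75 ± 0.23 and Klf2 by 1.54 ± 0.23. Klf6 and Klf15 were higher by 0.98 ± 0.18 and 0.93 ± 0.15. Klf12, Klf3 on its representing probe and Klf13 were lower, by -1.89 ± 0.20, -0.57 ± 0.13 and -0.52 ± 0.17. The gapped Klf3 probe was higher instead, as given above. Klf3 did not pass within wash batch 1, at -0.31 (limma adjusted p = 0.129). Klf13 did not pass within wash batch 2, at -0.31 (limma adjusted p = 0.276). For Klf15 the estimates thus had opposite directions, lower than fed in CTRL and higher than fed in AAKO livers. The interaction above tested the difference between these responses and not their directions, which rest on fed mice of another experiment. The CTRL value was -0.60 in wash batch 1 and -0.45 in wash batch 2, where it did not pass (limma adjusted p = 0.150). In 8 of 10 genes the fasted and fed AAKO mice did not overlap, where 42.6% of all genes showed such a gap, and in CTRL mice this held for 2 of 10, against 22.6%. Beside these responses, 4 of 5 neutrophil markers rose in AAKO and 1 of 5 in CTRL livers, with medians of 3.27 and 0.92. Of the 6 endothelial markers 3 rose and 2 fell in AAKO, and 1 rose and 1 fell in CTRL livers. For comparison, 6744 of all 24251 genes rose and 8650 fell in AAKO, and 5068 rose and 5435 fell in CTRL livers. Kupffer cell markers fell in 3 of 6 and 2 of 6, with medians of -0.74 in AAKO and -0.66 in CTRL livers, and the part of these cells was not tested.

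**Figure D4:**
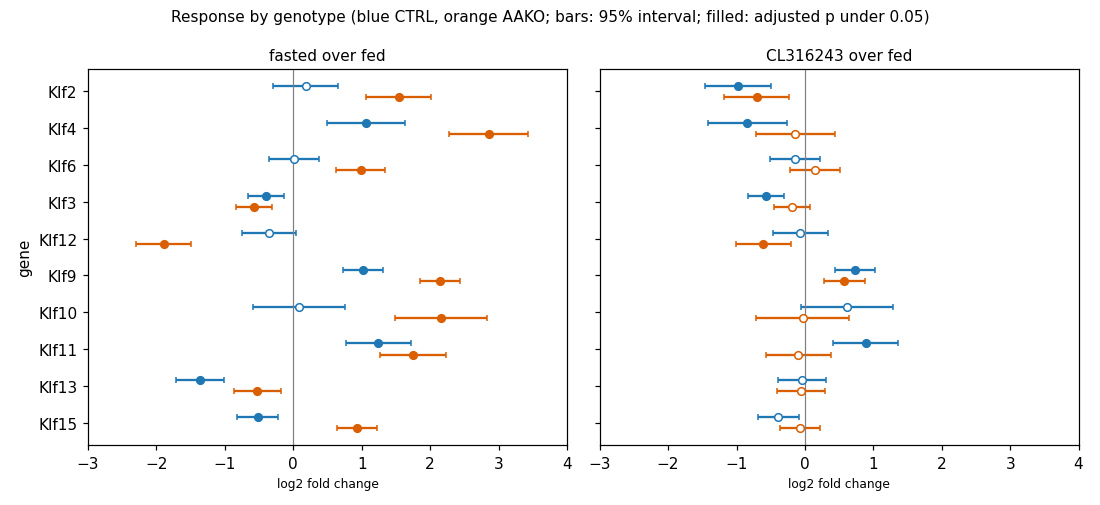
The x axis is the log2 fold change over fed mice of the same genotype, for fasting at the left and CL316243 at the right, and each row on the y axis is 1 KLF gene; points are limma estimates, bars are 95% intervals, blue is CTRL, orange is AAKO, and filled points have an adjusted p under 0.05. Klf4 reaches 2.86 in fasted AAKO mice, and Klf15 after fasting lies on opposite sides of 0 in the genotypes. The CL316243 estimates run from -0.98 to 0.89.

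Mice given CL316243 differed from fed mice, again across experiments, in 5 of 10 KLF genes in CTRL livers, where 23.3% of all genes passed. For AAKO livers this held for 3 of 10, where 31.4% of all genes passed. In CTRL livers Klf11 and Klf9 were higher, by 0.89 ± 0.23 and 0.73 ± 0.14, and Klf2, Klf4 and Klf3 lower, by -0.98 ± 0.23, -0.84 ± 0.28 and -0.57 ± 0.13. Klf4 lost its call when any of 6 arrays was left out (fed CTRL replicates 2, 3, 5 and 6, CL316243 CTRL replicates 4 and 6), at -0.72 to -0.82. Within wash batches 1 and 2 Klf11 was 0.93 and 0.85 and Klf4 was -0.97 and -0.71, and these passed in neither. Klf2 passed in wash batch 1 only and Klf3 in wash batch 2 only. Klf15 at -0.39 (limma adjusted p = 0.0519) and Klf10 at 0.62 did not pass. In AAKO livers Klf9 was higher by 0.58 ± 0.15, and Klf2 and Klf12 were lower by -0.71 ± 0.23 and -0.61 ± 0.20. Klf9 was 0.83 in wash batch 1 and 0.25 in wash batch 2, where it did not pass. Klf2, at -0.86 and -0.56, and Klf12, at -0.47 and -0.72, passed in neither wash batch. Klf2 lost its call without AAKO replicate 5 (-0.63) and Klf12 without AAKO replicate 6 (-0.52). Beside the lower Klf2 and Klf4, 5 of 6 endothelial markers fell in the CTRL comparison, with a median of -0.77, and their mean was 1.17 ± 0.20 in fed and 0.44 ± 0.35 in treated mice (SD, n = 6). In the AAKO comparison 3 of these 6 fell, with a median of -0.46. Kupffer cell markers fell as well, 4 of 6 in CTRL with a median of -0.89 and 5 of 6 in AAKO with a median of -1.22, and 0 of 5 neutrophil markers passed in either genotype. Of all 24251 genes 3112 fell in the CTRL and 3797 in the AAKO comparison. The part of endothelial and Kupffer cells in the KLF differences was not tested.

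Fasting and CL316243 were compared within experiment 1. In CTRL livers 3 of 10 KLF genes passed, where 36.8% of all genes did. Klf4 was higher after the fast by 1.91 ± 0.28 and Klf2 by 1.16 ± 0.23, and Klf13 was lower by -1.32 ± 0.17. In AAKO livers 10 of 10 passed, where 59.9% of all genes did, with Klf4 at 3.00 ± 0.28 (7.98-fold), Klf2 at 2.25 ± 0.23 and Klf10 at 2.19 ± 0.33. Klf12 was lower by -1.28 ± 0.20. Klf13 at -0.46 ± 0.17 lost its call without the fasted AAKO mouse of replicate number 6, at -0.34, and with the authors' deposited log2 values, at -0.32. Klf3 at -0.38 ± 0.13 on its representing probe lost it with those values, at -0.27, and in a fit of the compared groups alone, at -0.35. It was -0.85 in wash batch 2 and -0.0019 in wash batch 1, where it did not pass (adjusted p = 0.993). The gapped Klf3 probe was higher after the fast instead, by 2.40 ± 0.16 (limma adjusted p = 6.64e-14, over all probes), and the downstream probe was lower, by -0.64 ± 0.13. Markers of other cells also moved in this comparison. Of the 6 endothelial markers 4 were higher after the fast in each genotype, with medians of 0.45 in CTRL and 0.47 in AAKO livers. Among all 24251 genes 4665 were higher in CTRL and 6343 in AAKO livers. Of the 5 neutrophil markers 4 were higher in AAKO livers, with a median of 2.45, and 0 passed in CTRL livers, where the median was 0.79. None of the 6 Kupffer cell markers passed in limma in either genotype. The part of these cells in the higher Klf2 and Klf4 was not tested.

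The order of the 6 groups was as follows for the genes with a clear leader. Fasted AAKO mice had the highest mean of Klf2, Klf4, Klf6, Klf9, Klf10, Klf11 and Klf15. They did not overlap the next group for Klf2, Klf6, Klf9 and Klf15. How many of all tested genes show such a gap to the next group was not counted. For Klf15 the next groups were fed CTRL at 4.72 ± 0.09, fed AAKO at 4.63 ± 0.33, CL316243 AAKO at 4.56 ± 0.22, CL316243 CTRL at 4.33 ± 0.18 and fasted CTRL at 4.20 ± 0.42 (SD, n = 6 each), each overlapping its neighbour. For Klf9 the fasted CTRL mean of 3.54 ± 0.39 was followed by CL316243 CTRL at 3.26 ± 0.22 and CL316243 AAKO at 3.09 ± 0.16, and the fed groups were lowest at 2.53 ± 0.32 and 2.53 ± 0.22. Klf13, like Klf15, had its lowest mean in fasted CTRL mice, at -0.14 ± 0.40, and its 4 fed and CL316243 groups lay between 1.06 and 1.22.

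Genes linked to the KLFs were read from lists of their relatives, cofactors, regulators and targets, also chosen with earlier results of these data known. Their counts stand beside those of all tested genes in the fasted genotype comparison, of which 21.3% rose and 28% fell, with a median of -0.04. Of the other KLF genes tested, Klf7 at 0.54 and Klf16 at 0.79 rose in fasted AAKO relative to fasted CTRL livers, and Klf1 at 0.06 and Klf17 at 0.31 did not pass. Klf5, Klf8, Klf14 and Sp8 were not tested. Of the SP family, which binds the same GC boxes, 2 of 8 rose, Sp4 by 0.62 and Sp1 by 0.55, and 0 fell, with a median of 0.08. Of 12 cofactors 4 rose and 4 fell, where 49.3% of all genes passed in either direction, with a median of 0.03. The largest were Sap30, a Sin3 complex subunit, at 1.04, and Kat2b, an acetyltransferase, at -0.90.

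Among 8 genes that respond to or control glucocorticoid action, 6 rose and 1 fell in fasted AAKO relative to fasted CTRL livers, with a median of 0.91. The largest were Dusp1, a MAP kinase phosphatase, at 2.29 and Sgk1, a kinase, at 2.21. After CL316243 relative to fed, 7 of these 8 fell in CTRL livers and 5 of 8 in AAKO livers, with medians of -0.85 and -0.51. Over all 24251 genes 3112 and 3797 fell in these comparisons, and the medians were -0.03 and -0.01. Among 12 circadian clock genes 9 rose and 0 fell in fasted AAKO, with a median of 1.099, led by Per3 at 2.27 and Nr1d1, which encodes REV-ERB alpha, at 2.17. After CL316243 the genotype difference was instead -0.93 for Per3 and -0.41 for Tef, the 2 of 12 that passed, where 2741 of all genes were lower. Per1 is in both lists. The livers were taken at 1 time of day, so a shifted rhythm and a changed level cannot be told apart.

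Of 11 genes of amino acid catabolism and gluconeogenesis that are linked to KLF15, 5 rose and 2 fell in fasted AAKO, with a median of 0.46. Aass, a lysine-degrading enzyme, rose by 1.15 and Tat, tyrosine aminotransferase, by 1.14. Both were also higher in AAKO after CL316243, by 0.97 and 1.26, being 2 of the 3 in the list that were. Over all 24251 genes 3261 were higher in that comparison, and Klf15 itself, at 0.22, did not pass. Of 6 endothelial genes known as targets of KLF2 and KLF4, 4 rose and 0 fell in fasted AAKO, with a median of 1.19, led by Thbd, thrombomodulin, at 2.06 and Vcam1, an adhesion molecule, at 1.65. In the same list 5 of 6 fell in CTRL livers given CL316243 relative to fed and 3 of 6 in AAKO livers, with medians of -1.14 and -0.82. The 6 general endothelial markers also fell in 5 of 6 and 3 of 6, with medians of -0.77 and -0.46. Of all 24251 genes 3112 and 3797 fell there. Of 9 TGF-beta genes, to which Klf10 responds, 5 rose and 1 fell in fasted AAKO, with a median of 0.36, with Skil at 0.95 and Smad3 at -0.84.

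The 2 genes whose levels followed each KLF gene most closely over the 36 arrays were found by Pearson's r, as a description, since arrays of a group share their treatment. Klf9 was followed by Zbtb10 (r = 0.971) and Suv420h1 (0.969), Klf13 by Tanc2 (0.969) and Coq10b (0.861), and Klf4 by Slc43a3 (0.967) and Itprip (0.967). Klf2 was followed by Clec1b (0.954) and Plpp1 (0.947), and Klf6 by Ier3 (0.927) and Tiparp (0.927). For Klf12 these were A230092J17Rik (0.912) and Ido2 (0.901), for Klf11 Cbfa2t2 (0.895) and Gigyf1 (0.895), and for Klf15 Mpzl2 (0.891) and Dohh (0.889). Klf10, with AK132421 (0.840) and Pogk (0.834), and Klf3, with Ecsit (0.778) and BC029214 (0.744), had looser followers. Taken on deviations from group means, r was 0.883 for Klf13 with Tanc2, 0.811 for Klf4 with Itprip and 0.447 for Klf15 with Dohh.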

How the data were processed

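Scanner files with spot intensity values were deposited by the authors, made with version 10.10.1.1 of Agilent Feature Extraction. Per the file headers, these intensity values had their background subtracted and no scaling between arrays. The authors also deposited log2 values for 36898 probes, with limma named in the submitters' processing notes. How these were normalized is not stated: the scale is log2 and the direction that of the scanner signal, every column matched its own array best, and all columns of a group hold the same sorted values, so levels are fixed within groups. Column medians were 6.91 and 6.93 for fed CTRL and AAKO, 6.97 and 7.01 for fasted, and 6.91 and 6.88 for CL316243.

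Here, log2 processed signal minus the 75th percentile of each array was used. Outlier-marked spots (0.127%) were left out, spots of a probe averaged, and a gene represented by its probe of highest mean. Genes well above background on 5 of 6 arrays of at least 1 group were tested (24251) with limma 3.58.1 in R 4.3.3 over all 36 arrays, with 6 group means and the wash batch, two-sided, and Benjamini-Hochberg adjustment. The fit was tested on simulated data. The number of arrays limits the precision. Members and gene lists were chosen with earlier results of these data known. Named genes are all KLF genes, the 2 tested genes with the highest r to each, and, from each list, the 2 passing genes with the largest change between genotypes; genes of the other KLF list are all named. Alternatives were other scaling (quantile), normexp background correction, the authors' log2 table, other filters, wash batch, slide and sample choices, every probe separately, and leaving out each array.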

Additional observations from a re-analysis of the deposited data

Results flagged for a closer look

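In fed CTRL mice the Klf12 level of replicate 4, at 0.65, lay far above the other 5, of which the next was at 0.18. Such a gap was looked for in 60 sets of 6 mice, and chance gives about 1 in 20.

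The genotype difference changed between fed and fasted mice, by a direct limma test of the interaction, for Klf10 (2.08), Klf4 (1.79), Klf15 (1.46), Klf2 (1.36), Klf9 (1.13), Klf6 (0.98), Klf13 (0.84) and Klf12 (-1.54). The genotype difference also changed between CL316243 and fasted mice for Klf10 (2.73), Klf11 (1.49), Klf9 (1.28), Klf15 (1.14), Klf2 (1.09), Klf4 (1.09), Klf13 (0.86), Klf6 (0.69), Klf3 (-0.54) and Klf12 (-0.995). The 2 tests share the fasted mice.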

How the results depend on the processing

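Over 120 pairs of a KLF gene and a comparison, 67 passed and 0 of these changed sign under any alternative. Of the 67, 12 lost the call under some alternative other than a single wash batch, 9 of them without 1 array, 19 within wash batch 1 and 25 within wash batch 2, where fewer arrays were fitted. The count of KLF genes that passed for the genotype by CL316243 interaction was 1 in place of 0 with no wash batch term or with slide as a fixed factor, and 0 to 1 without 1 array. For the genotype difference after CL316243 the count was 2 within wash batch 1, 1 within wash batch 2 and 2 to 4 without 1 array. For CL316243 against fed it was 2 within each wash batch in CTRL and 1 within each in AAKO mice. The AAKO gene was Klf9 in wash batch 1 and Klf10 in wash batch 2. For the genotype by fasting interaction it was 3 within wash batch 2, and for fasting against CL316243 it was 5 within wash batch 1 and 3 within wash batch 2.

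Among differences that did not pass, some changed sign. Klf10 for CL316243 against fed in AAKO mice was 1.18 within wash batch 2, where it passed (adjusted p = 0.0174), and -0.22 to 0.18 without 1 array. Klf10 for fasted against fed in CTRL mice was -0.24 within wash batch 1 and -0.064 to 0.25 without 1 array, Klf2 was -0.035 to 0.34 without 1 array, and Klf6 was -0.029 within wash batch 1, -0.037 with slide as a fixed factor and -0.17 to 0.12 without 1 array. Klf3 within wash batch 1 was 0.27 for the genotype difference in fasted mice and 0.13 for the genotype by fasting interaction.

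Normexp correction moved 6 Klf11 values by over 1.5 times, all still past the test, to between -0.42 and 0.93. With the replicate number as a block, the count for CL316243 against fed in CTRL mice was 6 in place of 5 (Klf15 at -0.39 passed), and no other call changed. Same-numbered arrays deviated together in only 16 of 90 pairs (r above 0.1), so the number does not pair the mice.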
